A study of Mus musculus with 6 samples.

Results

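B-1-like B cells were 732 of 31457 mouse splenocytes (2.33%) and 4.77% of the 15342 B cells among them. They were chosen by transcripts alone, in all 6 single-cell libraries. A member held at least 2 UMIs (unique molecular identifiers, 1 per captured RNA molecule) of Cd79a, which encodes a signalling subunit of the B cell receptor. It held no UMI of the T cell genes Cd3e and Cd3d, of the macrophage gene Csf1r or of Fcer2a, which encodes CD23 of follicular B cells. It also held at least 1 UMI of at least 2 of 4 marker genes, Bhlhe41, Sox5, Fcrl5 and Il5ra. The share depends on depth and on that number: with 2000 UMIs drawn from each cell 206 of 13446 B cells passed, and with at least 3 markers the mean share was 1.33% in control-diet and 1.85% in test-diet libraries.

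Spleens came from wild-type C57BL/6 mice that were 6 weeks old when they were put on ND or MCDHFD, the names the labels give to the control and the test diet. They stayed on it for 7 weeks, and MCDHFD is labelled as a MASH model. Each diet has 3 libraries, all described as the 10x 3' assay, and the titles of the MCDHFD libraries shorten the name to MCD. Nothing in the labels tells separate mice from repeats of one sample, so p-values measure only the spread between these libraries.

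B-1 cells are an innate-like, self-renewing B cell lineage of the body cavities, with a minority in the spleen, and they secrete natural IgM without immunization. Bhlhe41 is a transcription factor that B-1a cells need for their self-renewal, and Il5ra is the binding subunit of the receptor for IL-5, a cytokine that maintains B-1 cells. Fcrl5 is an inhibitory Fc receptor-like protein of B-1 and marginal zone B cells, and Sox5 is a transcription factor expressed in B cell subsets.

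Many B-1a cells bind phosphatidylcholine through a few germline-encoded receptors, classically a heavy chain using Ighv11-2 with a kappa chain using Igkv14-126, or Ighv12-3 with Igkv4-91. The gate used no immunoglobulin gene, so these 4 segments were read independently of it. The last 150 bases of their second coding exon are printed here from the GRCm38 genome on the coding strand. Capitals run from the last in-frame cysteine codon to the end of the exon, which is the part that enters the antigen-binding CDR3 loop.
Ighv11-2, chr12:114048241-114048390, minus strand: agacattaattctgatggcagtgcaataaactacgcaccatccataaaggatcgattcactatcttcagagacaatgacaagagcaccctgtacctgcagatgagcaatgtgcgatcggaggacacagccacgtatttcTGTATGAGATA
Igkv14-126, chr6:67896493-67896642, plus strand: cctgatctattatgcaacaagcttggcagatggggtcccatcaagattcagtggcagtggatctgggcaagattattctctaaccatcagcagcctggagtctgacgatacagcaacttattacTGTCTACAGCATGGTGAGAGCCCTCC
Ighv12-3, chr12:114366521-114366670, minus strand: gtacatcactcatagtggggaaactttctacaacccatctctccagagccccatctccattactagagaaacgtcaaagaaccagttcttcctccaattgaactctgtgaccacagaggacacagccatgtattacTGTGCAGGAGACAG
Igkv4-91, chr6:68768555-68768704, minus strand: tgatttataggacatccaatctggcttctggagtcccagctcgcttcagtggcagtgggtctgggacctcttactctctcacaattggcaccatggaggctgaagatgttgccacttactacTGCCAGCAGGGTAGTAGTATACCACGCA

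The libraries did not all come in one form. ND replicate 2 and MCDHFD replicate 3 were deposited with filtered barcode lists and a Cell Ranger 7.2.0 header, and the other 4 with unfiltered lists and a 9.0.1 header. Total UMIs ranged from 21259837 to 62238012, and 3273 to 6606 cells passed the limits of 1000 UMIs, 400 genes and at most 10% mitochondrial UMIs. B-1-like cells numbered 202, 55 and 140 in the 3 ND replicates and 135, 164 and 36 in the MCDHFD replicates, listed here and throughout by replicate number. Their median depth was 9610 to 11290.5 UMIs in the unfiltered libraries and 5627 to 8759 in the filtered ones. Their median mitochondrial share was 4.97 to 5.01% in the unfiltered and 0.695 to 2.60% in the filtered libraries. List form was therefore kept as a term in the diet model. No B-1-like barcode was B-1-like in 2 libraries, and at most 2 of them in any library were also kept cells of another. Pairs of libraries with the same list form shared 5 to 18 kept barcodes, and pairs with different forms 0 or 1. Whether the assay or its barcode set also differed between the forms was not tested. The list form term may therefore carry more than the form of the list.

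Depth also separated B-1-like cells from other B cells. A cell with more UMIs more easily shows 2 markers, and whether B-1-like cells also hold more RNA cannot be told apart from that. Fcer2a-positive B cells (9272 cells) had library medians of 3642 to 5852 UMIs. Each comparison with them was therefore repeated against as many Fcer2a-positive cells of like depth in every library, with medians of 5620 to 11293 UMIs. These are called UMI-matched cells. That comparison has far fewer comparator cells, so it also has less precision.

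The 4 gate genes chose the cells, and their values are a description. Among the 6070 Fcer2a-negative B cells, 3934 showed none of the 4 markers, 1404 showed 1, 475 showed 2, 172 showed 3 and 85 showed all 4. Cells with exactly 2 markers thus made up 64.9% of the B-1-like cells. The commonest pair was Sox5 with Fcrl5 (147 cells, 20.1%), followed by Sox5 with Il5ra (111 cells, 15.2%) and Fcrl5 with Il5ra (104 cells, 14.2%). Bhlhe41 was seen in 33.3 to 45.0% of B-1-like cells of a library, Il5ra in 52.8 to 67.1%, Fcrl5 in 57.9 to 78.7% and Sox5 in 65.8 to 77.9%. By diet, Fcrl5 was seen in 66.8%, 72.7% and 57.9% with ND and 77.0%, 78.7% and 77.8% with MCDHFD, without overlap. The other markers overlapped between the diets. In B-1-like cells the pair Sox5 with Il5ra made up 35 of 202, 8 of 55 and 33 of 140 with ND. With MCDHFD they were 15 of 135, 17 of 164 and 3 of 36, without overlap as shares, while the other pairs overlapped. The part of these differences in the diet results was not tested, though counts under a gate without Fcrl5 are given below. The gate let through 1 of 6738 T cells (0.0148%) when applied to their markers alone. Of Fcer2a-positive B cells, 379 (4.09%) also showed at least 2 of the 4 markers and were left out by the Fcer2a rule.

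Outside the gate, most of the genes listed for B-1 cells from the literature stood higher in B-1-like cells than in Fcer2a-positive B cells. UMIs were summed over the cells of a group in a library and expressed as CPM, the gene's counts scaled to 1000000 UMIs of that sum. Differences are log2 values from edgeR's quasi-likelihood test with the library as a block, adjusted by Benjamini-Hochberg over all genes tested. Of 18 listed B-1 genes, 17 were tested, 15 were higher and none was lower, with a median difference of 1.75. Over all 11194 genes tested, 33.6% were called, 14.9% higher and 18.7% lower, and the median difference was -0.06. Against UMI-matched cells 11 of the 17 were higher and none lower, beside 10.5% of all genes called (5.23% higher and 5.31% lower). The list summed to 1303 to 2777 CPM in B-1-like, 690 to 891 CPM in Fcer2a-positive and 1203 to 2012 CPM in T cells. The sum alone therefore did not set B-1-like cells apart from T cells.

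Zbtb32 encodes a transcriptional repressor of B cell responses. Its CPM was 25.0, 19.0 and 21.2 in ND and 22.1, 23.9 and 12.4 in MCDHFD libraries, against 0.901 to 2.68 in Fcer2a-positive cells. Every B-1-like value lay above every Fcer2a-positive value, and the difference was 3.72 (SE 0.27, edgeR Benjamini-Hochberg adjusted p = 1.61e-10). It was 2.05 against UMI-matched cells (edgeR adjusted p = 0.024). A Zbtb32 UMI was seen in a mean of 12.95% of B-1-like cells, 0.604% of Fcer2a-positive cells and 0.892% of T cells, taken as the background of free RNA, with library median depths of 5687.5 to 8401 UMIs. At 2000 UMIs drawn from each cell these shares became 3.15%, 0.169% and 0.286%.

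Plscr1 encodes a phospholipid scramblase of the cell membrane. It stood at 26.9, 41.1 and 26.4 CPM in ND and 44.2, 38.7 and 86.6 CPM in MCDHFD libraries, above the 4.41 to 9.36 CPM of Fcer2a-positive cells in every library (difference 2.74, and 2.13 against UMI-matched cells). Cd9, a tetraspanin of B-1 and marginal zone B cells, stood at 106, 139 and 94.1 CPM in ND and 107, 76.0 and 107 CPM in MCDHFD libraries, against 10.9 to 24.6. The groups did not overlap, and the Cd9 difference was 2.64 (SE 0.11), or 1.36 against UMI-matched cells. Spn, which encodes CD43, a sialoglycoprotein that B-1 cells carry and resting follicular cells lack, was higher by 1.81. Among the other members, Itgb1 (integrin beta 1) was higher by 2.00, Ahnak, a very large scaffold protein, by 1.90, and Nfatc1, a calcium-driven transcription factor, by 1.24.

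Cd5 defines the B-1a subset on the cell surface. Its CPM in B-1-like cells was 5.19, 15.8 and 5.16 in ND and 7.60, 2.87 and 8.25 in MCDHFD libraries, against 0.334 to 1.97 in Fcer2a-positive cells. The groups did not overlap and the difference was 2.28, but the comparison with UMI-matched cells gave 0.88 (edgeR adjusted p = 0.238). Only 43 of the 732 cells carried a Cd5 UMI, against a mean of 49.9% of T cells, so Cd5 marks few of these cells at this depth. Itgam, Anxa2, Lgals1 and S100a6 also passed against all Fcer2a-positive cells and not against UMI-matched ones. Siglecg (difference -0.01) and Pdcd1lg2 (0.28) did not pass against all Fcer2a-positive cells, and Cd300a was too low to be tested. Pdcd1lg2, which encodes PD-L2 of B-1 cells, passed against UMI-matched cells (0.72, edgeR adjusted p = 0.0239).

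**Figure D1:**
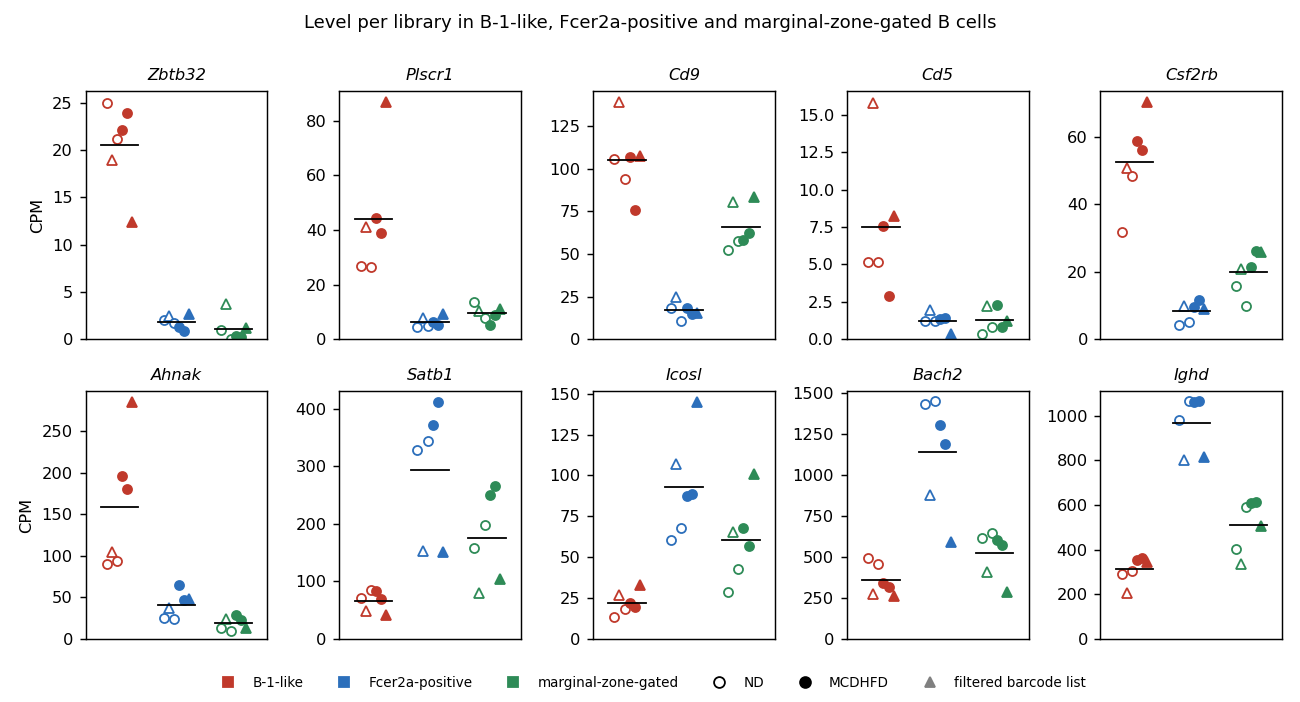
Level in CPM of 10 genes outside the gate in B-1-like, Fcer2a-positive and marginal-zone-gated B cells, 1 symbol per library (open ND, filled MCDHFD, triangles filtered barcode lists) and a bar for the mean of 6 libraries. Zbtb32 and Plscr1 stood above both other groups in every library, while Satb1, Icosl, Bach2 and Ighd stood below Fcer2a-positive cells in every library.

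Genes of follicular B cells were lower. Of 10 listed follicular genes, none was higher and 9 were lower than in Fcer2a-positive cells (median -1.49), and 7 were lower against UMI-matched cells. Bach2, a repressor that holds B cells back from plasma cell differentiation, stood at 492, 277 and 457 CPM in ND and 341, 314 and 260 CPM in MCDHFD libraries. Fcer2a-positive cells had 1428, 875 and 1450 CPM in ND and 1303, 1190 and 589 CPM in MCDHFD libraries, higher in 6 of 6 libraries with no overlap (difference -1.65, and -1.21 against UMI-matched cells).

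Ighd encodes the constant region of IgD, which B-1 cells carry at low levels. It stood at 291, 206 and 306 CPM in ND and 353, 364 and 347 CPM in MCDHFD libraries, below the 800 to 1067 CPM of Fcer2a-positive cells in all libraries (difference -1.63). Satb1, a chromatin organizer, was 41.3 to 84.3 CPM against 151 to 412 (difference -2.14), and Icosl, the ligand of the T cell costimulator ICOS, was 13.2 to 33 CPM against 60.4 to 145 (difference -2.03). Neither gene's groups overlapped. Cd55, a complement regulator, was lower by 1.53 on the log2 scale, while Fcmr, the Fc receptor for IgM, was the member that did not pass (-0.09).

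The IL-5 receptor signals through a beta chain that it shares with the IL-3 and GM-CSF receptors and that is encoded by Csf2rb. Its binding chain was in the gate and the beta chain was not. Csf2rb stood at 31.6, 50.6 and 48.2 CPM in ND and 58.7, 55.9 and 70.1 CPM in MCDHFD libraries, against 4.28 to 11.7 CPM in Fcer2a-positive cells. No B-1-like library overlapped them, and the difference was 2.71 (SE 0.14, edgeR Benjamini-Hochberg adjusted p = 9.26e-13). It was 1.62 against UMI-matched cells. A Csf2rb UMI was seen in a mean of 33.2% of B-1-like, 3.56% of Fcer2a-positive and 1.42% of T cells, or 10.2%, 1.08% and 0.358% at 2000 UMIs per cell.

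Other cytokine receptors moved in both directions. Of 15 tested cytokine and BAFF receptor genes, 6 were higher and 8 were lower (median -0.30), and against UMI-matched cells 3 were higher and 6 lower. Il6st, the signalling subunit of the IL-6 receptor family, was higher by 1.55 and Il6ra, its IL-6-binding partner, by 0.41. Lower were Il21r (-1.56) and Il4ra (-1.26), the receptors for the T helper cytokines IL-21 and IL-4, Il10ra (-1.02), Ifngr1 (-0.81) and Tnfrsf13c (-0.75), which encodes the BAFF receptor. All 7 of these genes also passed against UMI-matched cells. Tnfrsf17, which encodes the plasma cell receptor BCMA, was higher by 2.16, but 2 libraries held no UMI of it and in the other 4 the top cell held 64.7 to 100% of its UMIs.

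Homing genes divided as well. Of 18 tested, 7 were higher and 9 lower (median -0.08), and 5 and 4 against UMI-matched cells. Itgb1, already named among the B-1 genes, stood at 149, 69.6 and 117 CPM in ND and 151, 152 and 111 CPM in MCDHFD libraries against 24.1 to 37.7 CPM, without overlap. Ackr3, a scavenging receptor for CXCL12, was higher by 3.33 and Cd44, a hyaluronan receptor, by 0.94. Lower were chemoattractant receptors that guide B cells within lymphoid tissue. Ccr7 differed by -1.21, Gpr183 by -1.15 and Ccr6 by -0.91, and all 3 also passed against UMI-matched cells, while Cxcr4 (-0.92) did not pass there.

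Antigen presentation genes were mostly lower, by small amounts. Of 12 tested genes of MHC class II and costimulation, 10 were lower and 2 higher (median -0.46), and 8 and 1 against UMI-matched cells. Ciita, the master activator of MHC class II genes, differed by -0.87, H2-Aa by -0.55 and Cd74, the invariant chain, by -0.45. The exceptions were Cd80 (2.57) and Cd86 (0.50), which encode the ligands of CD28 and CTLA-4, and Cd80 alone of the pair passed against UMI-matched cells (1.86). Cd80, Nt5e (CD73, 3.33), Zeb2 (0.89), Cxcr3 (2.12) and Cd86 made up the 5 of 8 tested age-associated and memory B cell genes that were higher. MCDHFD replicate 3 held no UMI of Nt5e, Cxcr3 or Cd80 in its 36 B-1-like cells.

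Signalling and transcription factor genes were more often called lower than higher against all Fcer2a-positive cells. Of all genes, 14.9% were higher and 18.7% lower there, and 5.23% and 5.31% against UMI-matched cells. The receptor signalling list's sums overlapped, with 5504 to 6354 CPM in B-1-like and 5832 to 6854 CPM in Fcer2a-positive cells. Of 19 B cell receptor signalling genes 3 were higher and 9 lower (median -0.20), and 2 and 3 against UMI-matched cells. The higher ones were Nfatc1, Blk, a Src-family kinase, by 0.65, and Cd81, a tetraspanin, by 0.28. Of 24 transcription factors, 7 were higher and 13 lower (median -0.29), and 2 and 7 against UMI-matched cells. Tcf4, an E protein, was higher by 0.98 and Zeb2 by 0.89, and these were the pair that passed against UMI-matched cells. Ebf1 (-0.60) and Pax5 (-0.38), the factors that set B cell identity, and Runx1 (-0.68) were lower in both comparisons. Of the inhibitory receptors and phosphatases, those with the smallest p, Cd22 (-0.63), Pecam1, Ptpn6 and Fcrl1, all had negative differences. Ptpn22, a phosphatase that damps antigen receptor signalling, went the other way and was higher by 1.74.

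Marginal zone genes overlapped with the B-1-like profile. Of 10 listed, 7 were higher than in Fcer2a-positive cells and 1 lower (median 1.16), and 5 and 2 against UMI-matched cells. S1pr3, a sphingosine phosphate receptor that holds cells in the marginal zone, was higher by 2.44, Myof by 1.57 and Cd1d1, which presents lipids to NKT cells, by 1.09. Cr2, which encodes the complement receptor CD21 of marginal zone cells, did not pass (-0.17, edgeR adjusted p = 0.0736), and was lower against UMI-matched cells (-0.43). Of the B-1-like cells, 361 (49.3%) showed at least 2 of Cr2, Cd1d1, Dtx1 and Myof, against 2793 (30.1%) of Fcer2a-positive cells, without adjustment for depth.

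Secretory and proliferation genes were higher against all Fcer2a-positive cells, and most of these calls were lost against cells of like depth. Of 12 plasma cell genes 10 were higher and none lower, against 3 of 11 for UMI-matched cells. Those 3 were Prdm1 (Blimp-1, the driver of plasma cell differentiation; 2.63, and 1.53 matched), Derl3 (2.62 and 1.27) and the chaperone Hsp90b1 (0.87 and 0.60). Of 18 cell cycle genes 12 were higher and 1 lower, against 1 and 1 for UMI-matched cells. Mki67, the proliferation marker, was higher by 2.22 against all Fcer2a-positive cells and did not pass against UMI-matched ones (edgeR adjusted p = 0.628). Oxidative phosphorylation went from 15 higher and 1 lower of 29 to 3 higher and none lower, and glycolysis from 9 of 16 higher to 1.

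Other lists gave mixed counts. Of 31 tested type I interferon response genes, 4 were higher and 10 lower (1 and 6 against UMI-matched cells), with Ifi208 lower by 1.29 and Ly6a (Sca-1) higher by 0.80 on the log2 scale. Of 19 genes of interferon gamma response and class I presentation, 8 were higher and 1 lower (6 and none matched), among them Gbp7, a guanylate-binding protein (1.34), and B2m, the light chain of class I molecules (0.33). Apoe, the lipid-carrying apolipoprotein E, stood at 975, 427 and 454 CPM in ND and 457, 537 and 425 CPM in MCDHFD libraries, against 86.1 to 178 CPM in Fcer2a-positive cells. Every library was higher, and the Apoe difference was 2.02 and stayed at 2.03 against UMI-matched cells. Il10, the regulatory cytokine of innate-like B cells, was too low to be tested. It was seen in 15 B-1-like cells, with 0.478 to 12.4 CPM across libraries against 0 to 0.401 CPM in Fcer2a-positive cells. The list of cytokines made by innate-like B cells went the other way. Its sum was 425 to 710 CPM in B-1-like and 740 to 1290 CPM in Fcer2a-positive cells.

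**Figure D2:**
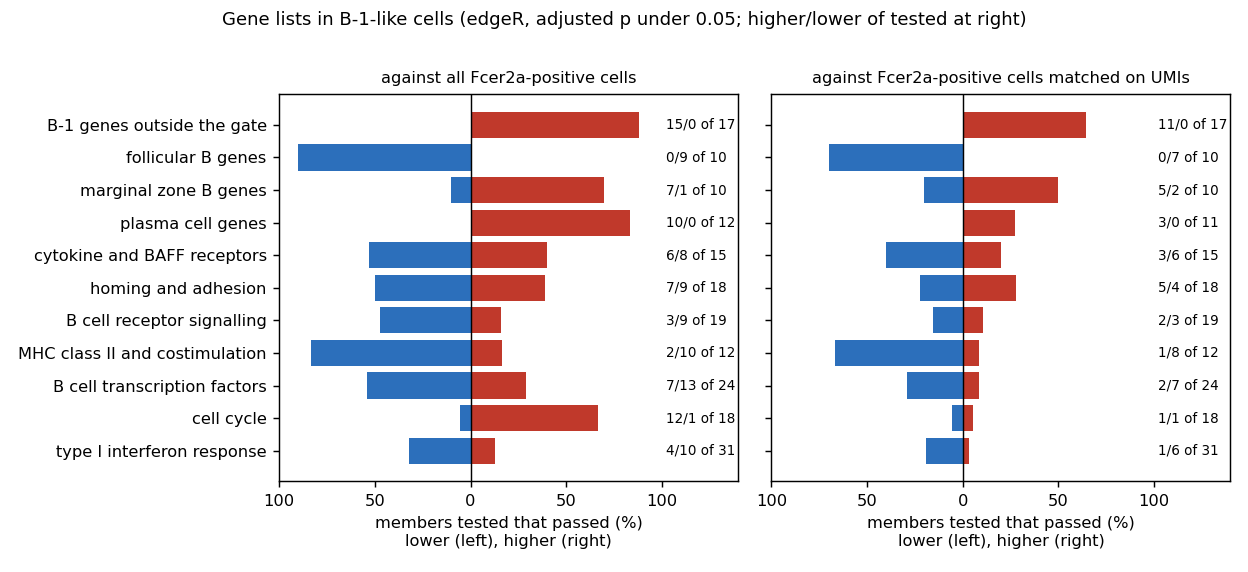
Percent of the tested genes of 11 lists that were higher or lower in B-1-like cells (edgeR adjusted p under 0.05), against all Fcer2a-positive B cells on the left and against UMI-matched ones on the right. On the left 15 of 17 B-1 genes were higher and 9 of 10 follicular genes lower, and on the right 11 and 7, while cell cycle genes went from 12 of 18 higher to 1.

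Beyond the lists, 373 higher and 1015 lower genes called by edgeR also had one direction in all 6 libraries and a mean log2 CPM of at least 5. One direction in all 6 libraries was seen for 27.1% of all genes tested. Tbc1d9 (2.82), Rbm47, an RNA-binding protein (2.86), Sbf2 (2.25) and Itgb1 were among the 15 largest increases. Agbl1 had the largest difference of these (3.91), but up to 85% of its UMIs in a library came from 1 cell. The largest decreases were Pxdc1 (-2.37), Neurl3, an E3 ubiquitin ligase (-2.27), and Zfp608 (-2.20), and the group also held Stat4, Il4i1 and Bcl6, the repressor that directs germinal centre B cells (-1.66). Pxdc1, Neurl3 and Zfp608 were also lower against UMI-matched cells (-1.96, -1.64 and -1.74).

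Several genes outside the gate also followed the number of gate markers a cell showed. This is a description, since depth moves with that number. Mean Zbtb32 was 0.966 CPM in Fcer2a-negative B cells with no marker, 2.84 with 1, 12.8 with 2 and 34.0 with 3 or 4, beside 1.82 in Fcer2a-positive cells. Csf2rb went from 12.4 to 19.7, 44.7 and 66.0 CPM over the same steps, and Pstpip2, an actin-associated adaptor, from 2.85 to 6.91, 32.8 and 159 CPM. In 6 of 6 libraries, cells with 2 markers, just inside the gate, had more Zbtb32, Csf2rb, Cd9, Cd5, Pstpip2, Ahnak and Itgb1 than cells with 1 marker, just outside it. Some other listed B-1 genes did so in fewer: Siglecg, Vim and Lgals1 in 5, and Plscr1, Itgam, Pdcd1lg2, Anxa2 and Arid3a in 4. Ctla4 did so in 3 libraries, and Spn and Cd300a in 2. Satb1 went the other way, from 238 CPM with no marker to 135, 80.3 and 42.8 CPM. Cr2 did not follow one direction, with 515, 606, 634 and 232 CPM.

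**Figure D3:**
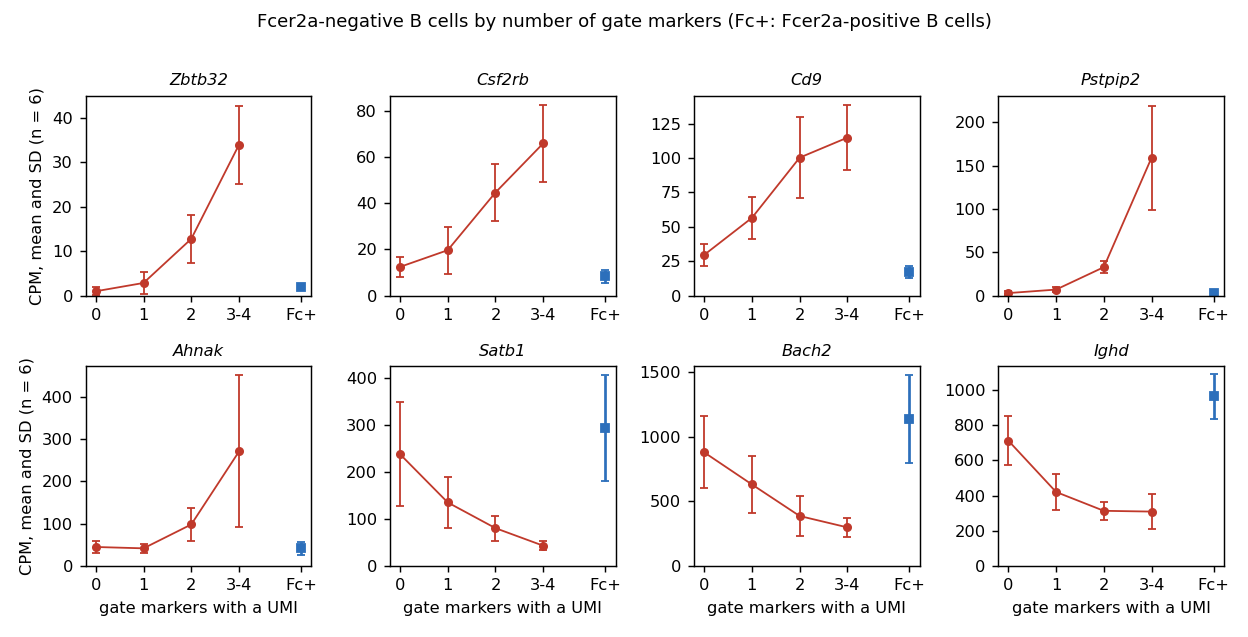
Mean level in CPM (bars are SD, n = 6 libraries) of 8 genes outside the gate in Fcer2a-negative B cells with 0, 1, 2 and 3 or 4 gate markers and in Fcer2a-positive B cells. Zbtb32, Csf2rb, Cd9 and Pstpip2 were higher with each step, and Satb1, Bach2 and Ighd lower, with little further change in Ighd between 2 markers (313 CPM) and 3 or 4 (309 CPM).

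B-1-like cells were also compared with other Fcer2a-negative B cells, the 1834 marginal-zone-gated cells, which showed fewer than 2 of the B-1 markers and at least 2 of Cr2, Cd1d1, Dtx1 and Myof. Of 10508 genes tested, 10.4% were called between them and B-1-like cells, 607 higher in B-1-like cells (5.78%) and 484 lower (4.61%). B-1 genes were higher for 13 of 17 and lower for none, and 11 were higher against UMI-matched marginal-zone-gated cells, beside 8.26% of all genes called (5.24% higher and 3.02% lower). Pstpip2 stood at 80.2, 39.5 and 99.2 CPM in ND and 107, 90.8 and 61.9 CPM in MCDHFD libraries against 1.23 to 6.98 CPM, without overlap (difference 4.44). Zbtb32 was higher by 4.76, Ahnak by 2.94, S100a6 by 2.87 and Csf2rb by 1.38. St8sia6, a sialyltransferase (2.06), Ccdc28b (2.02) and Apoe (1.97) were also among the 8 largest increases.

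Lower than in marginal-zone-gated cells were Tmem108 (-1.92), Satb1 (-1.41), Icosl (-1.40) and Hes1, a target of the Notch2 signal that directs marginal zone fate (-1.17). Of the 6 marginal zone genes not used in that gate, 3 were lower (Hes1, Asb2 and Notch2 itself, -0.27) and none higher, while S1pr3 differed by -0.30 without passing (edgeR adjusted p = 0.181). Follicular genes gave 2 higher and 6 lower of 10. The higher pair was Klf2, a factor that governs trafficking (0.87), and Fcmr (0.50). Cell cycle genes gave 1 higher (Ccnd2, 0.98) and none lower of 18.

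All 4 phosphatidylcholine-associated variable segments that were tested of the 5 listed were higher in B-1-like than in Fcer2a-positive cells. Ighv11-2 stood at 1.41, 210 and 5.16 CPM in ND and 4.84, 2.87 and 561 CPM in MCDHFD libraries, against 0 to 2.12 CPM in Fcer2a-positive cells. The high values belonged to the 2 libraries with filtered lists, and the difference was 6.79 (SE 0.68). Igkv14-126 stood at 1.89, 476 and 5.16 CPM in ND and 2.07, 5.26 and 928 CPM in MCDHFD libraries (difference 3.40), with the same libraries high. Ighv12-3 differed by 3.71 and Igkv4-91 by 2.26. The Igkv4-91 call was lost with at least 3 markers, without Fcrl5 in the gate, and within either list form alone. Variable segments of all kinds made up 0.0364 to 0.0696% of B-1-like UMIs in the unfiltered libraries and 1.04 to 6.91% in the filtered ones. Within the unfiltered libraries alone 3 of the 4 segments were still called higher in B-1-like cells (Ighv11-2 by 4.42, Igkv14-126 by 3.16 and Ighv12-3 by 3.03), as in the filtered ones (7.55, 3.47 and 4.39).

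Single-cell segment calls, which needed at least 2 UMIs of a segment, were read in the 2 filtered libraries, where most cells had one. There, 10 of 85 B-1-like cells with a heavy chain call used Ighv11-2 (11.8%), against 1 of 1636 Fcer2a-positive cells (0.0611%) and 0 of 282 marginal-zone-gated cells. By library these were 5 of 50 B-1-like cells in ND replicate 2 and 5 of 35 in MCDHFD replicate 3. Igkv14-126 was used by 10 of 83 B-1-like cells with a kappa call (12%), against 13 of 1775 Fcer2a-positive (0.732%) and 2 of 293 marginal-zone-gated cells (0.683%). The pairing of the sequences printed above was seen within cells: 9 of 9 B-1-like Ighv11-2 cells with a kappa call used Igkv14-126. The 1 Fcer2a-positive Ighv11-2 cell had a kappa call and did not use it. Ighv12-3 was called in 3 B-1-like cells, of which 2 used Igkv4-91, and in 1 Fcer2a-positive cell, which did not. The neighbouring segment Ighv11-1 differs from Ighv11-2 at 4 of 307 bases of this exon, so reads may be split between them.

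Constant region genes gave 2 higher and 1 lower of 11 tested against Fcer2a-positive cells, beside 14.9% higher and 18.7% lower of all genes. Ighm, the IgM heavy chain, stood at 4935, 1787 and 4064 CPM in ND and 7493, 13075 and 1089 CPM in MCDHFD libraries against 1060 to 3458 CPM in Fcer2a-positive cells. The groups overlapped and the difference of 1.07 did not pass (edgeR adjusted p = 0.0613), and the top cell of a library held 6.8 to 30% of its Ighm UMIs. Ighg3 passed (4.81), but its 1069 CPM in ND replicate 1 came to 93.6% from 1 cell, and the other libraries ranged from 0 to 47.4 CPM.

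The share of B-1-like cells among B cells did not separate the diets. It was 5.10%, 3.07% and 4.72% with ND and 5.05%, 6.12% and 2.84% with MCDHFD. The lowest library of each diet was the one with a filtered list, and the diets overlapped. Under the stricter limits of at least 1500 UMIs and at most 5% mitochondrial UMIs the shares were 3.49%, 3.13% and 3.24% with ND and 3.48%, 4.24% and 2.80% with MCDHFD, so the filtered libraries stood closer to the others. Those limits left 99 of 202 B-1-like cells in ND replicate 1 and all 55 in ND replicate 2. Means were 4.29% ± 1.08 in ND and 4.67% ± 1.67 in MCDHFD (SD, n = 3 each), a difference of 0.376 percentage points (two-sided exact permutation p = 0.8; 0.1 is the smallest p the design allows). The difference was -0.679 points with all cells as denominator, -1.41 with Fcer2a-negative B cells, -0.239 without ND replicate 2 and -0.349 without MCDHFD replicate 2, so its sign was not stable. Within the 4 unfiltered libraries it was 0.676 points (exact permutation p = 0.667), and each diet has a single filtered library (3.07% and 2.84%).

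**Figure D4:**
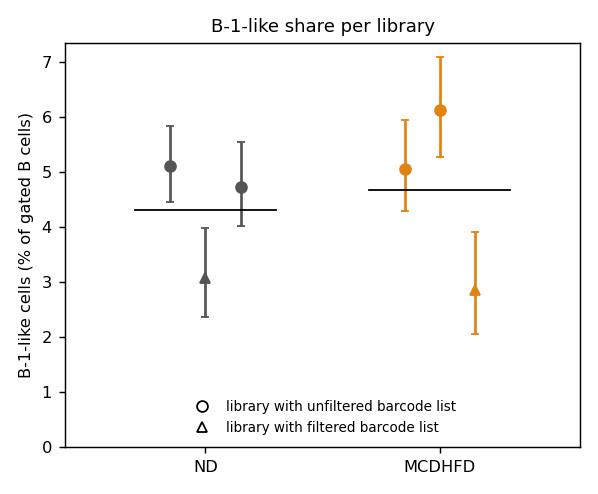
B-1-like cells as a percent of gated B cells in each library, with 95% Wilson intervals that cover counting error alone, a bar for the mean of each diet (n = 3) and the marker shape giving the barcode list form. The ND and MCDHFD libraries overlap, and the 2 filtered libraries are the lowest of their diets.

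Gene levels in B-1-like cells differed by diet for a limited set of genes once list form was in the model. With diet and list form in the model, edgeR called 213 of 9651 genes (2.21%), 74 higher (0.767%) and 139 lower (1.44%) in MCDHFD libraries. The diets did not overlap for 12.9% of all genes tested. With diet alone in the model edgeR called none, with 487 genes at an unadjusted p below 0.05. DESeq2, run with both terms, called 112, of which 77 were among the 213. In bulk sums such as these, fewer expressing cells and less RNA per cell cannot be told apart.

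Vim and Ahnak rose in MCDHFD libraries. Vim, the intermediate filament vimentin, stood at 162, 258 and 143 CPM in ND and 357, 290 and 487 CPM in MCDHFD libraries. All MCDHFD values lay above all ND values, and the difference was 1.00 (SE 0.14, edgeR Benjamini-Hochberg adjusted p = 0.000107). Ahnak stood at 90.1, 104 and 93.5 CPM in ND and 196, 180 and 285 CPM in MCDHFD libraries, without overlap (1.11, SE 0.14, edgeR adjusted p = 5.14e-05). Crip1, a small zinc-binding LIM protein, stood at 678, 933 and 771 CPM in ND and 1249, 1034 and 2088 CPM in MCDHFD libraries, again without overlap (0.80). Anxa2, a membrane-binding annexin, rose by 0.91 and Tuba1a, an alpha tubulin, by 0.97. Vim, Ahnak and Anxa2 were the 3 of 17 B-1 genes that rose, and none fell. Under those stricter limits on cells Vim gave an edgeR adjusted p of 0.052 and Ahnak of 0.07.

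Among genes whose diets did not overlap and whose log2 CPM averaged 5 or more, the largest increase was in Fkbp5, a standard target of the glucocorticoid receptor that encodes an Hsp90 co-chaperone. It stood at 21.2, 17.4 and 31.5 CPM in ND and 108, 191 and 45.4 CPM in MCDHFD libraries, without overlap (2.35, SE 0.29, edgeR adjusted p = 0.00348). The call was lost when the gate needed 3 markers (edgeR adjusted p = 0.13) or left out Fcrl5 (0.17). Of 10 tested glucocorticoid-responsive genes, 3 rose (Fkbp5, Ddit4 by 0.99 and Zfp36l2 by 0.75) and none fell, with a median of 0.82. Il9r, the receptor chain for IL-9, was the one of 15 cytokine and BAFF receptor genes that rose, with 31.1, 39.5 and 18.9 CPM in ND and 77.4, 69.8 and 41.3 CPM in MCDHFD libraries (1.25). The diets did not overlap, but the Il9r call was lost without ND replicate 1 (edgeR adjusted p = 0.052) and without ND replicate 3 (0.10).

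Ifi27l2a, an interferon-inducible mitochondrial protein, fell most firmly. It stood at 715, 884 and 683 CPM in ND and 205, 192 and 128 CPM in MCDHFD libraries, without overlap (-2.11, SE 0.16, edgeR Benjamini-Hochberg adjusted p = 4.14e-08). Its adjusted p with diet alone in the model was 0.0721. Bst2, the interferon-inducible tetherin, stood at 62.2, 61.7 and 62.5 CPM in ND and 28.3, 27.2 and 20.6 CPM in MCDHFD libraries, also without overlap (-1.26, SE 0.20). These were the 2 of 28 type I interferon genes that fell. None rose and the list's median was -0.38. H2-K1, a class I heavy chain (-0.46), was the 1 of 19 interferon gamma and class I genes that fell.

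Plac8 and Cd24a, high in transitional B cells, fell as well. Plac8 stood at 1595, 1184 and 1740 CPM in ND and 1039, 951 and 458 CPM in MCDHFD libraries, without overlap (-0.97, edgeR adjusted p = 5.5e-05). Cd24a fell by 0.70, a call that was lost without ND replicate 1 (edgeR adjusted p = 0.052) or without MCDHFD replicate 1 (0.072). They were the 2 of 6 transitional genes that fell, and Rag1 and Rag2 had no UMI in B-1-like cells. Plac8 and Cd24a also had higher estimates in B-1-like than in Fcer2a-positive and marginal-zone-gated cells. Sox4 and Ms4a4c had lower ones in both comparisons. The transitional list summed to 1894 to 2218 CPM in ND and 965 to 1286 CPM in MCDHFD B-1-like cells. It gave 1050 to 1234 and 755 to 813 CPM in Fcer2a-positive cells, and 1420 to 1484 and 971 to 984 CPM in marginal-zone-gated cells. Whether transitional cells passed the gate was not tested.

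Genes of dividing cells were lower in MCDHFD libraries. Of 18 cell cycle genes 6 fell and 1 rose (Ccnd3, 0.83), with a median of -1.0. Top2a, the topoisomerase of replicating cells, stood at 81.6, 171 and 111 CPM in ND and 18, 26.8 and 4.13 CPM in MCDHFD libraries (-2.36), and Mki67 at 91, 190 and 85.5 against 21.4, 49.2 and 41.3 CPM (-1.48). Neither gene's diets overlapped. The levels rest on few cells, since a Mki67 UMI was seen in 26, 10 and 10 ND cells and in 5, 7 and 2 MCDHFD cells, or 12.9%, 18.2% and 7.14% against 3.70%, 4.27% and 5.56%. Removing 8 cells that carried at least 20 UMIs of other lineages' genes, an alternative added after the data were seen, ended both calls (edgeR adjusted p = 0.146 for Top2a and 0.483 for Mki67). Leaving out any ND library or MCDHFD replicate 3 ended the Mki67 call.

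**Figure D5:**
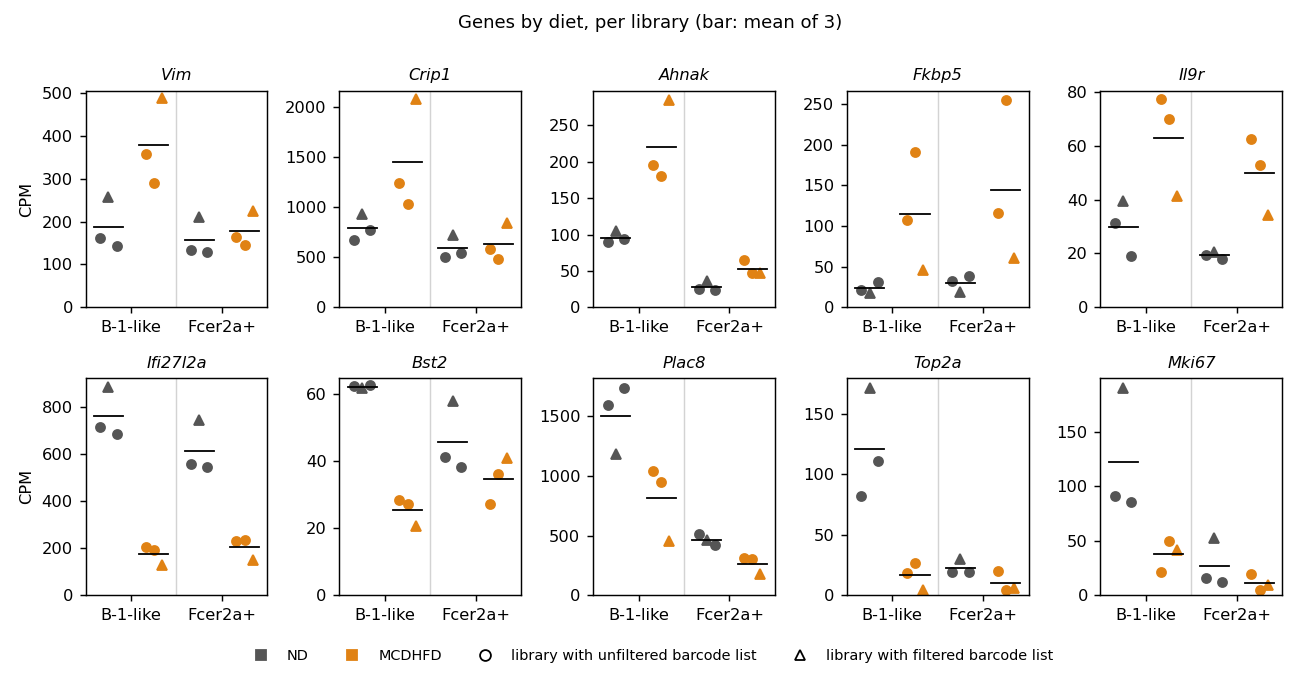
Level in CPM of 10 genes by diet in B-1-like and in Fcer2a-positive B cells, 1 symbol per library, triangles marking filtered barcode lists. In B-1-like cells Vim, Crip1, Ahnak, Fkbp5 and Il9r were higher and Ifi27l2a, Bst2, Plac8, Top2a and Mki67 lower in all 3 MCDHFD libraries than in any ND library.

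Few metabolic genes were called by diet. Of 19 methionine, choline and one-carbon genes tested and of 16 glycolysis genes, none passed in edgeR's test with list form in the model, and the medians were 0.10 and -0.21. Of 29 oxidative phosphorylation genes 3 fell (Cox7c, Atp5e and Atp5k) and none rose, and the list summed to 6299 to 8467 CPM in ND and 5065 to 5957 CPM in MCDHFD libraries, without overlap. Fatty acid oxidation and PPAR target genes rose for 1 of 12, lipid uptake, storage and efflux genes for 2 of 13, and none of either list fell. Cpt1a, which admits long-chain fatty acids to mitochondria, rose by 1.08, Abca1, a cholesterol exporter, by 0.86, and Scd1, a fatty acid desaturase, by 0.59. Each of these 3 calls was lost when single libraries were left out. No gene of the follicular, marginal zone, B cell receptor signalling, homing or MHC class II lists passed, and of the inhibitory genes Ptpn22 rose (1.11) while Cd72 (-0.74) and Fcrla (-0.70) fell.

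The diets were also compared within Fcer2a-positive cells of the same libraries, where edgeR called 4.87% of 12538 genes, 1.78% higher and 3.09% lower. Type I interferon genes fell for 20 of 32 there, cell cycle genes for 8 of 18 and transitional genes for 6 of 7 (median -0.92), and B-1 genes rose for 2 of 18. No transitional gene gave a called difference between the 2 diet effects. Ifi27l2a differed by -1.64 and Fkbp5 by 2.15, the latter without passing (edgeR adjusted p = 0.134). Ahnak rose by 0.90. The difference between the diet effects of the 2 cell groups was tested as an interaction, which called 11 of 11194 genes (0.0983%; 0.0536% with a higher and 0.0447% with a lower diet effect in B-1-like cells). Of these, 5 were immunoglobulin variable segments, and Vim and Crip1 had the smallest adjusted p of the others.

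Vim rose with MCDHFD in B-1-like cells by 0.87 more than in Fcer2a-positive cells (SE 0.14, edgeR adjusted p = 0.00585). Fcer2a-positive cells had 134, 210 and 129 CPM in ND and 164, 146 and 223 CPM in MCDHFD libraries, which overlapped, and their own diet difference was 0.13 (edgeR adjusted p = 0.441). Crip1 gave an interaction of 0.76 (SE 0.12, edgeR adjusted p = 0.00585), with 505, 728 and 544 CPM in ND and 581, 489 and 846 CPM in MCDHFD libraries in Fcer2a-positive cells, again overlapping. The Vim call held when any 1 library was left out. That of Crip1 was lost without ND replicate 1 (edgeR adjusted p = 0.053) or without ND replicate 2 (0.08). For no other gene of the B-1 list was a difference in diet effect called.

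Markers of other cells were measured in the same sums. The T cell list summed to 37.3 to 45.4 CPM in B-1-like cells, against 28.7 to 46.6 CPM in Fcer2a-positive cells and 2960 to 3949 CPM in T cells. The neutrophil list reached 10295 CPM in ND replicate 2 and 11018 CPM in MCDHFD replicate 1, mostly from 1 cell in each, and was 20.6 CPM in the lowest library. The eosinophil, basophil and mast cell list was 0 to 2.36 CPM in ND and 8.25 to 30.4 CPM in MCDHFD libraries, with Epx and Cpa3 at 0, and Prg2 was called higher by diet (4.27, with 53.8 to 100% of its UMIs in the top cell of a library). The monocyte and macrophage list summed to 37.3 to 396 CPM and the NK cell list to 4.24 to 280 CPM, and neither range separated the diets. Ly6c2 of the monocyte list was called higher (1.65, with 98.9% of its UMIs in MCDHFD replicate 3 from 1 cell), as was Ccr9 of the dendritic cell list (1.6, with 4.13 CPM in MCDHFD replicate 3 below every ND library). Pf4 and Gp9 of platelets were at 0. Removing the 8 cells named above left 724 and gave 247 calls by diet and 3851 against Fcer2a-positive cells. Those cells were chosen by neutrophil, T cell, erythroid, platelet, and eosinophil, basophil and mast cell genes. Monocyte, NK and dendritic cell genes played no part in that choice, and MCDHFD replicate 3 lost no B-1-like cell. The part of those lineages in the diet calls was therefore not tested.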

How the data were processed

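Raw UMI counts per gene and barcode were deposited by the authors as 1 matrix of 32285 genes for each of 6 libraries. The submitters' processing notes name Cell Ranger 9.1.0, Seurat 4.3.0 and mm10, while the file headers give Cell Ranger 7.2.0 or 9.0.1. No column belonged to other samples (0). A few withheld genes are counted in lists and totals but not reported here. The members, gene lists and tests were chosen with earlier results of these data known.

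Cells needed at least 1000 UMIs, 400 genes and at most 10% mitochondrial UMIs. Scrublet (scanpy 1.11.5) marked 1 and 0 cells as doublets in the filtered libraries and 60 to 244 in the others, so it hardly worked in the former. Doublets were kept, and 6 of the 732 B-1-like cells were marked. UMIs were summed per cell group and library (B-1-like sums 242388 to 2120724 UMIs) and tested with edgeR 4.0.16 in R 4.3.3 (TMM, filterByExpr, robust quasi-likelihood, Benjamini-Hochberg). The diet model held diet and list form, with 3 residual degrees of freedom, and comparisons of cell groups had the library as a block. The genes of the B-1-like gate were never tested, and the 4 genes of the marginal-zone gate were not tested against the cells it chose. Shares were compared by an exact permutation test.

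Named genes were the 12 (diet), 15 (Fcer2a-positive) or 8 (marginal-zone-gated) per direction with the largest change among called genes (adjusted p under 0.05) whose log2 CPM averaged 5 or more and whose diets did not overlap, or that had one direction in 6 libraries. Members of the lists were named beside them, and Il10, Pstpip2 across marker numbers, Plac8, Crip1 and Ptpn22 were chosen after their values were seen.

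On simulated counts, 2-fold changes (log2 1) were recovered for 61.6% of genes by diet and 93.6% against Fcer2a-positive cells, and 4-fold ones (log2 2) for 100% in both. For the interaction these shares were 36.0% and 83.3%. False calls made up 5.85% of calls by diet, 3.17% against Fcer2a-positive cells and 3.60% for the interaction. The simulation left out genes with few UMIs, gave all genes the same dispersion and held no effect of list form, so recovery in the data may be lower. Alternatives were DESeq2 1.42.0, other scalings and filters, immunoglobulin genes removed, other gates and cell limits, UMI-matched cells, thinning to 2000 UMIs, a replicate block and each library left out. Intervals cover counting error only. Replicates of a diet differed by more than counting noise in every pair (chi-square per degree of freedom 3.56 to 28.9), so no pair was taken for 1 library deposited more than once. This does not show that they are separate samples. Sequences are from GRCm38 with GENCODE vM21.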

Additional observations from a re-analysis of the deposited data

Results flagged for a closer look

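A response to diet that differed between B-1-like and Fcer2a-positive B cells was called for 6 genes outside the immunoglobulin segments, of which 5 are described, as the difference of the 2 log2 diet effects (edgeR, Benjamini-Hochberg over all genes). Vim gave 0.87 and Crip1 0.76, as described above. Ulbp1, a ligand of the NK cell receptor NKG2D, gave -1.95 (SE 0.37, edgeR adjusted p = 0.0307). It stood at 19.3, 25.3 and 28.1 CPM in ND and 11.1, 7.17 and 12.4 CPM in MCDHFD B-1-like cells, and at 6.95, 7.13 and 9.63 CPM in ND and 14.3, 11.1 and 9.03 CPM in MCDHFD Fcer2a-positive cells. The call was lost without ND replicate 3, MCDHFD replicate 1 or MCDHFD replicate 2 (edgeR adjusted p = 0.095, 0.11 and 0.098).

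Ston1, an endocytic adaptor, gave -2.78 (SE 0.56, edgeR adjusted p = 0.0364). It was higher in MCDHFD libraries in both cell groups, with 4.72, 6.32 and 3.44 CPM in ND and 13.8, 28.2 and 37.1 CPM in MCDHFD B-1-like cells, and with 0.401, 0.455 and 0.405 CPM in ND and 12.7, 16.5 and 19.7 CPM in MCDHFD Fcer2a-positive cells. Leaving out any library but MCDHFD replicate 2 ended the call (edgeR adjusted p = 0.088 to 0.18).

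Cebpe, a factor of granulocyte precursors, gave 7.62 (SE 1.34, edgeR adjusted p = 0.0157). In each library with a Cebpe UMI, 1 B-1-like cell held 100% of them, and without MCDHFD replicate 1 the adjusted p was 1.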

How the results depend on the processing

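The sign of the share difference depended on the denominator and on single libraries: it was 0.376 percentage points of gated B cells, -0.679 of all cells and -1.41 of Fcer2a-negative B cells (the last added after the data were seen), and it ran from -0.349 to 1.29 with each library left out (-0.239 without ND replicate 2, -0.349 without MCDHFD replicate 2). The 213 calls by diet became 112 with DESeq2 (77 shared), 498 with no filter on low counts, 0 with diet alone, 480 with a replicate block and list form, 74 with at least 3 markers, 129 with a gate without Fcrl5 and 75 under stricter cell limits. They ranged from 83 to 216 with each library left out (107, 101 and 83 without ND replicates 1 to 3, 126, 216 and 87 without MCDHFD replicates 1 to 3), and were 87 with unfiltered lists alone, an alternative added later.

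Against Fcer2a-positive cells, 3758 calls became 2478 with at least 3 markers, 1082 against UMI-matched cells (1035 shared) and 439 in the filtered libraries alone, and 2820 to 4011 with each library left out. Calls were higher in B-1-like cells for 44.3% of the 3758, but for 56.3% of 2961 with DESeq2, 53.2% of 3534 with upper-quartile scaling and 53.8% of 3599 without immunoglobulin genes. The median of all genes was -0.06 and moved by less than 0.1 under these scalings. Against marginal-zone-gated cells the 1091 calls ranged from 729 to 1340 over all alternatives. The 11 differences in diet effect became 5 with DESeq2, 72 with no filter, 6 without immunoglobulin genes, 17 with list form by group, 54 with a replicate block by group, and 3 to 41 with each library left out (3 without MCDHFD replicate 3, 41 without MCDHFD replicate 2).

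Signs turned for Camp by diet without the 8 cells rich in other lineages' UMIs (-3.47), for Hbb-bs (0.26), Hba-a2 (0.34) and Txnip (0.0849) against UMI-matched cells, and for Tlr7 (-0.013) in the filtered libraries. Replicate numbers did not pair the libraries: deviations of same-numbered libraries correlated at 0.29, -0.387 and -0.322, against 0.419 for the 2 filtered libraries. Swapping diets within numbers gave p = 1.0 for the share (exact, smallest possible 0.25). Depth limits the filtered libraries most, with 55 and 36 B-1-like cells. The cause of these shifts was not tested, apart from those that follow from fewer cells or genes.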
